A study of Mus musculus with 2 samples.

Results

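The blood lineage miRNAs are 6 mature microRNAs whose rows were picked by their miRBase accession, out of 739 rows on the array. They are miR-142a-5p (MIMAT0000154) and miR-142a-3p (MIMAT0000155), made throughout the blood lineages, miR-223-3p (MIMAT0000665), a myeloid miRNA, and the erythroid miRNAs miR-451a (MIMAT0001632), miR-144-3p (MIMAT0000156) and miR-486-5p (MIMAT0003130). The accessions, not measured values, define the set, and each matched 1 row. Total RNA of CD4+ T cells from the lamina propria of the gut and from the spleen was labelled with the dye Hy5 and measured on 1 array per tissue. Both groups came from female C57BL/6 mice of genotype IL-10 +/- aged 10 weeks, so both carry the same heterozygous Il10 allele and no wild type array was analysed here. The lamina propria lymphocytes were released with collagenase, and CD4+ cells of both tissues were then purified on magnetic columns. Collagenase is named for the lamina propria alone, so tissue and digestion cannot be told apart, and no label says how many mice were used per array.

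MicroRNAs are short RNAs that guide Argonaute proteins to messenger RNAs, mainly through the seed, the bases near their 5′ end. The miR-142 hairpin is transcribed in nearly all blood cells and little outside them, and it yields a mature miRNA from each arm. miR-223 is abundant in granulocytes and monocytes, where it restrains neutrophil production and activity. miR-144 and miR-451a are cut from a common transcript driven by the factor GATA1 in red cell precursors, and miR-451a is matured by Argonaute 2 without Dicer. miR-486-5p is high in red cells and also in muscle. Because these miRNAs mark different blood lineages, their levels in a sorted T cell sample bear on which blood cells contributed RNA to it. In bulk samples such as these, fewer cells of a type and less RNA per cell cannot be told apart.

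The mature sequences of the members are shown first, since they are what the array rows measure. RefSeq's mouse table (GRCm38.p6) holds 5 of the 6, all but miR-486-5p. They are printed 5′ to 3′ with the seed, bases 2 to 8, in capitals.
miR-142a-5p: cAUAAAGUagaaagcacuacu
miR-142a-3p: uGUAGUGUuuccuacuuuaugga
miR-223-3p: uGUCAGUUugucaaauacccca
miR-451a: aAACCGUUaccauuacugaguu
miR-144-3p: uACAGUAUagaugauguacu
The 5 seeds were distinct, and no 2 of these members shared an identical run longer than 5 bases. None of the 5 seeds occurred at bases 2 to 8 of any other of the 1674 distinct mature sequences in that table. The longest run in common with another mature miRNA was 13 bases, between miR-142a-5p and miR-3964. For the other 4 members it was 8 or 9 bases. The GC content was low throughout, from 30.0% in miR-144-3p to 40.9% in miR-223-3p.

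The hairpins show how the members relate in the genome. Capitals mark the mature miRNAs that the table annotates in each.
Mir142: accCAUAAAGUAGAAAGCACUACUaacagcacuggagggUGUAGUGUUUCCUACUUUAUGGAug
Mir223: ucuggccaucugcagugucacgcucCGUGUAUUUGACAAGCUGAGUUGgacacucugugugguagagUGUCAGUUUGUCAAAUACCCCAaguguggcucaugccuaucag
Mir144: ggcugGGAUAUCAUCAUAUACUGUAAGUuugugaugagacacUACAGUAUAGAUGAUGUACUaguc
Mir451a: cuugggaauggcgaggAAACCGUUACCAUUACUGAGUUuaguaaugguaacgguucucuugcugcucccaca
Both measured arms of miR-142a come from 1 hairpin on the plus strand at chr11:87756864-87756927, at bases 4 to 24 and 40 to 62 of it. The Mir144 hairpin at chr11:78073005-78073070 lies 99 bases before the Mir451a hairpin at chr11:78073170-78073241, on the same plus strand. The miR-451a sequence runs through bases 17 to 38 of its 72-base hairpin, and the table annotates no second mature arm there. The Mir223 hairpin is on the plus strand at chrX:96242817-96242926, with miR-223-3p at bases 68 to 89. RefSeq annotates miR-142b on the strand opposite miR-142a-3p. Mir486 lies on chromosome 8 inside the span of Ank1, the gene of the red cell ankyrin, and overlaps Mir3107, also called mir-486b.

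Each array gave 1 deposited intensity per row, in arbitrary units and on a linear scale, and a row without a value was left as null. The lamina propria array listed 378 of the 739 rows and the spleen array 516, and 353 rows were listed on both. The lowest listed value was 2.88 in lamina propria and 1.39 in spleen, and the summed intensity was 182481 in lamina propria and 136232 in spleen. Every value here is from 1 array, so its error is unknown, and no difference between the tissues has a replicate check, a test or a p-value. Precision is limited throughout by having 1 array per tissue. Differences are given as the log2 ratio of lamina propria over spleen on the deposited scale, with no pseudocount. Across the 353 rows listed on both arrays the median log2 ratio was 0.01, and it was -0.59 in the upper 50% of them by mean log2 level (177 rows). Within this set the ratio depended on level: in 5 classes of mean level its median ran from 0.71 in the dimmest class over 0.24, -0.53 and -0.73 to -0.93 in the brightest. The part of the unequal lowest listed values in this trend was not tested.

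Of the 6 blood lineage miRNAs, 5 were listed on both arrays and 1, miR-144-3p, on neither. Among the 5, lamina propria CD4+ T cells had at least 2-fold less signal than spleen CD4+ T cells for 4, at least 2-fold more for 0 and a difference under 2-fold for 1. The 4 lower members, both arms of miR-142a, miR-223-3p and miR-451a, all lay in the upper 50% by mean level, where 41.2% of all rows were lower by 2-fold or more and 15.3% were higher by as much. Over all 353 shared rows, dim ones included, the shares were 25.8% lower and 16.1% higher. In the dimmest of the 5 level classes 0% were lower and 32.4% higher by 2-fold or more. No lamina propria row was listed under 2.88, while spleen rows were listed down to 1.39. If 2.88 is the least value that could be listed, the dimmest spleen rows could not be listed as 2-fold lower. Shares and medians over all shared rows carry this limit. The median log2 ratio of the 5 members was -2.13, beside 0.01 over all shared rows. Over the 173 other rows of the upper 50%, where 4 of the 5 members lie, it was -0.53. With 5 members and a background in which lower rows are common, these counts describe the members and set them apart from other rows in no tested way.

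**Figure D1:**
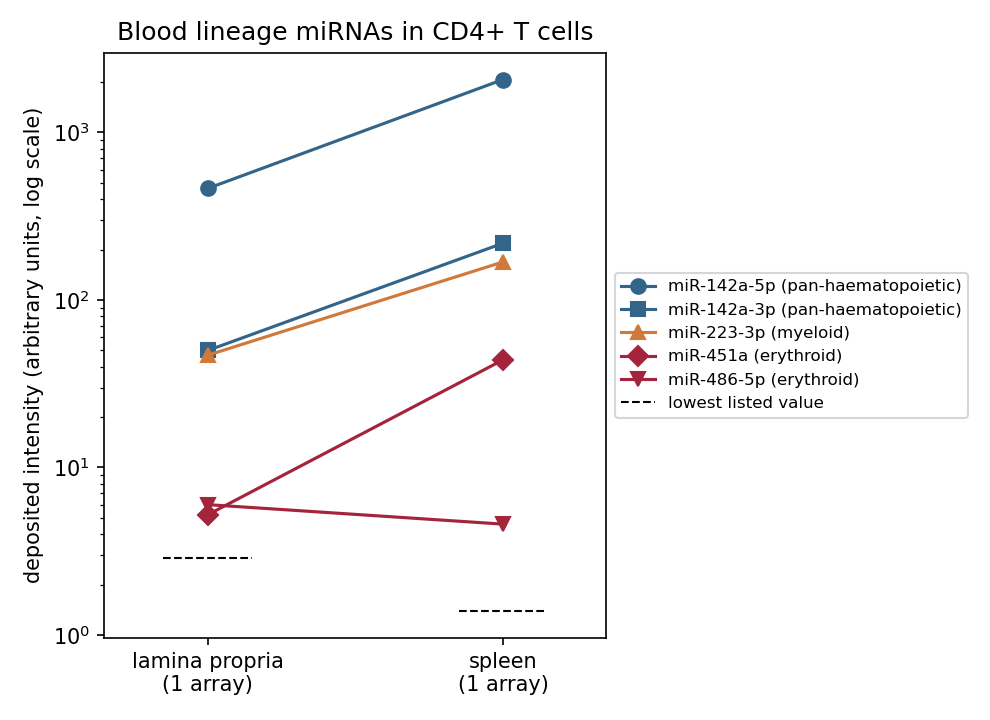
Deposited intensity (arbitrary units, log scale) of the 5 blood lineage miRNAs listed on both arrays, in lamina propria and in spleen CD4+ T cells. Each symbol is the value of 1 array, lines join the same miRNA, and dashes mark the lowest listed value of each array (2.88 in lamina propria, 1.39 in spleen). Both miR-142a arms, miR-223-3p and miR-451a slope upward towards spleen, and miR-486-5p lies near the dashes on both arrays.

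The pan-haematopoietic pair was lower in lamina propria by nearly the same factor in each arm. miR-142a-5p had an intensity of 462.96 in lamina propria and 2066.87 in spleen, a log2 ratio of -2.16, or 4.46-fold lower in lamina propria. miR-142a-3p, from the opposite arm of the hairpin, had 49.93 in lamina propria and 218.01 in spleen, a log2 ratio of -2.13, or 4.37-fold lower. The 3p ratio minus the 5p ratio was 0.03 on the log2 scale, although the deposited intensities of the 2 rows stand far apart. Intensities of different probes are not comparable as abundances, so nothing is read from which arm is brighter. The gap between the arms stayed at 0.03 with medians, 75th percentiles or trimmed totals set equal, since a single factor cannot change it, and was 0.05 with 1 added, 0.21 with 10 added and -0.04 with the lowest listed values subtracted. It was wider under the 2 settings that change with level, at 1.03 once the arrays were quantile normalized and 0.68 once a lowess trend of ratio on level was taken out. Both arms stood well above the lowest listed value, miR-142a-5p at 161 times that value in lamina propria and 1487 times in spleen, and miR-142a-3p at 17.3 and 157 times.

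Positions on each array, which do not depend on any scaling that keeps the order of rows, also shifted for this pair. For miR-142a-5p, 25 rows were brighter in lamina propria and 9 in spleen. For miR-142a-3p, 71 rows were brighter in lamina propria and 49 in spleen. Positions describe the arrays and not relative abundance, since probes differ in how strongly they bind. Among the 177 rows of the upper 50%, 18 had a lower ratio than miR-142a-5p and 21 a lower one than miR-142a-3p.

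The myeloid member showed a difference of similar size. miR-223-3p, the granulocyte and monocyte miRNA, had an intensity of 46.78 in lamina propria and 168.57 in spleen. Its log2 ratio was -1.85, or 3.60-fold lower in lamina propria, and 33 of the 177 rows had a lower ratio. It stood at 16.2 times the lowest listed value in lamina propria and 121 times in spleen, with 75 and 60 rows brighter than it on those arrays. Set against the pan-haematopoietic miR-142a-3p, its log2 ratio was 0.28 higher, so relative to miR-142a-3p it was slightly less reduced in lamina propria. A single scaling factor between the arrays cannot change this gap, and it stayed between 0.27 and 0.41 over all settings tried. This steadiness holds against miR-142a-3p, a row of similar brightness, and not against the brighter arm. The log2 ratio of miR-142a-5p was -2.16 as deposited, -2.10 with quantile normalization and -1.81 with the level trend taken out. Under those last 2 settings miR-223-3p rose and miR-142a-5p changed less, so they moved further apart. With no replicate array, whether a gap of this size exceeds array noise was not tested. The log2 ratio of miR-223-3p itself was -0.66 with quantile normalization and -0.85 with the level trend taken out, both within 2-fold, so the count of lower members becomes 3 under those settings.

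The 3 erythroid members are given in turn, since only miR-451a stood far above the lowest listed value, and in spleen alone. miR-451a had 5.22 in lamina propria and 43.86 in spleen, a log2 ratio of -3.07, or 8.40-fold lower in lamina propria, the lowest ratio of the 5 members. Only 4 of the 353 shared rows had a lower one. Its spleen value was 31.6 times the lowest listed value of that array, while its lamina propria value was 1.81 times the lowest, in a range where 157 of the 378 listed rows lie within 2 times of it. The lamina propria value is thus close to the bottom of the listed range, and the size of the fold turns on how that range is treated. The log2 ratio was -1.82 with 10 added to both values and -4.18 with the lowest listed value of each array subtracted, and miR-451a was over 3-fold lower in lamina propria in every setting tried. For miR-451a, 233 rows were brighter in lamina propria and 90 in spleen, the largest shift in position among the members.

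miR-486-5p was dim on both arrays and nearly even between them. It had 6.00 in lamina propria and 4.59 in spleen, a log2 ratio of 0.39, or 1.31-fold higher in lamina propria. These values were 2.08 times the lowest listed value in lamina propria and 3.30 times in spleen, and the median listed value was 6.57 in lamina propria and 4.995 in spleen. Its direction changed with the offset: with the lowest listed value of each array subtracted its log2 ratio was -0.04. It lay outside the upper 50% by mean level, in the second dimmest of the 5 level classes, whose median log2 ratio was 0.24.

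miR-144-3p, which shares its transcript with miR-451a, was null on both arrays, as were 198 rows in all. Read as a signal below the bottom of the listed range, a null puts it under 2.88 in lamina propria and under 1.39 in spleen. No direction can be given for it. In spleen, miR-451a was therefore listed well above the lowest value while its neighbour 99 bases upstream was not listed. No source used here gives the detection rule behind a null, and whether the 2 probes detect equally well was not tested.

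Relative to the pan-haematopoietic miR-142a-3p, the log2 ratio of miR-451a was lower on the deposited scale, with a gap of -0.94. Relative to miR-223-3p the gap was -1.22. Both gaps rest on the dim lamina propria value of miR-451a: with 10 added they were 0.10 and -0.17, and with the lowest listed values subtracted they were -1.98 and -2.25. The gap of miR-486-5p over miR-142a-3p was 2.51, and it was above 1.4 in every setting tried. Its spleen value was 4.59, while no lamina propria row was listed under 2.88. If 2.88 is the least value that could be listed there, miR-486-5p could not be listed as 2-fold lower. A positive gap on the deposited scale was then fixed beforehand, so its sign carries no information. Of the erythroid miRNAs, 1 was lower in lamina propria, 1 was within 2-fold and 1 was not listed. Only miR-451a was bright enough in spleen to be listed as 2-fold lower in lamina propria. Whether the erythroid miRNAs share a difference between the tissues could therefore not be judged.

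**Figure D2:**
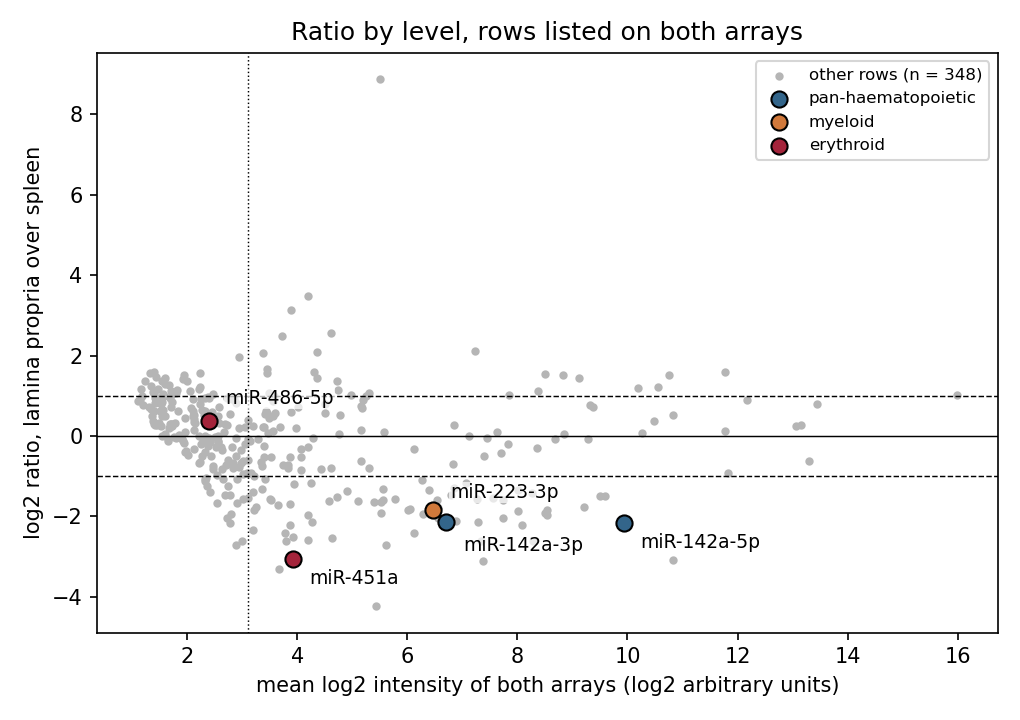
Log2 ratio of lamina propria over spleen against the mean log2 intensity of both arrays, for the 353 rows listed on both. Grey points are the other 348 rows, coloured points the 5 listed members, dashed lines mark 2-fold and the dotted line the median level. Both miR-142a arms, miR-223-3p and miR-451a lie right of the dotted line and below the lower dashed line. Both arms and miR-223-3p lie among many grey points, while miR-451a lies near the lower edge, with 4 of the 353 rows below it. miR-486-5p lies left of the dotted line between the dashed lines.

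Level-matched rows give a closer background for the members. Both arms of miR-142a and miR-223-3p belonged to the brightest class, whose 71 rows had a median log2 ratio of -0.93 with quartiles of -1.85 and 0.27. In that class 6 rows had a lower ratio than miR-142a-5p, 8 a lower one than miR-142a-3p and 17 a lower one than miR-223-3p. Of the class, 49.3% was at least 2-fold lower in lamina propria. miR-451a belonged to the next class, with a median log2 ratio of -0.73 over 70 rows, of which 2 had a lower ratio. The ratios of both arms and of miR-223-3p span 0.31 on the log2 scale, and 16 of the 177 rows in the upper 50%, these 3 included, lie in that span. This count is the only measure of likeness given, since it rests on 2 arrays and the other rows could not be named.

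The accession number of a row also goes with its ratio. Rows with accession numbers under 1000, a grouping already known from these data to hold low ratios, include 4 of the members: both arms of miR-142a, miR-144-3p and miR-223-3p. In the upper 50% by mean level, the 76 such rows that are not members had a median log2 ratio of -1.51, beside -2.16, -2.13 and -1.85 for the 3 listed members. Of all 79 such rows, members included, 11 had a lower ratio than miR-142a-5p, 14 a lower one than miR-142a-3p and 22 a lower one than miR-223-3p. The 3 members therefore sit in the lower part of a group that is itself low, and whatever sets the ratio of that group was not tested for its part in theirs. miR-451a and miR-486-5p have later numbers.

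As a share of the summed intensity, the members held 0.313% in lamina propria and 1.84% in spleen, a 5.87-fold lower share in lamina propria. Most of it was miR-142a-5p, with 0.254% in lamina propria and 1.52% in spleen. Without the brightest row of each array, which is no member, the shares were 0.631% in lamina propria and 2.76% in spleen, 4.37-fold lower in lamina propria. The share therefore depends on the brightest row, while the direction was the same with and without it.

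**Figure D3:**
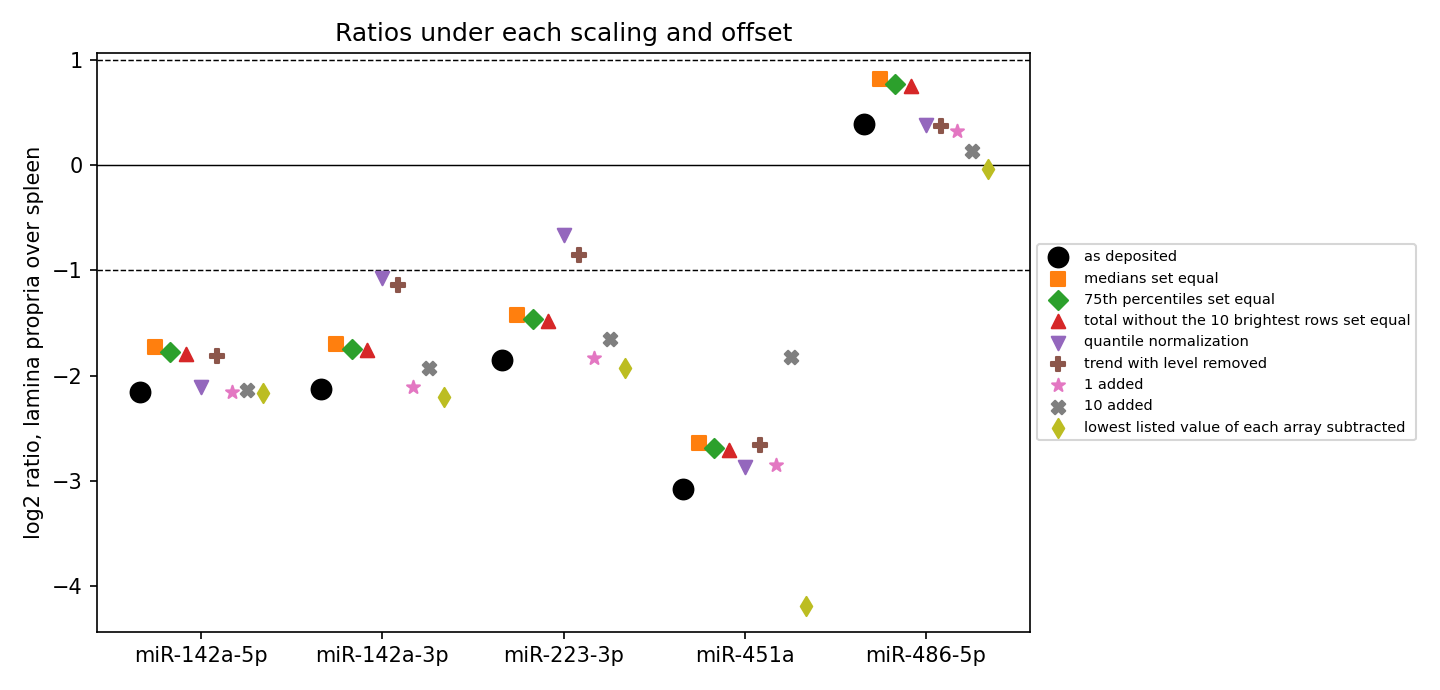
Log2 ratio of lamina propria over spleen for the 5 listed members as deposited (black) and under the other scalings and offsets, each symbol 1 setting. Dashed lines mark 2-fold. Both miR-142a arms and miR-451a lie below the lower dashed line under every setting, miR-223-3p crosses it under 2 settings, and miR-486-5p stays between the dashed lines.

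Whether these samples held T cells, epithelium or stroma could not be read from other rows, because the tables used here pair no further accession with a name. The members can bear on the blood origin of the CD4+ T cell samples and on myeloid or erythroid RNA in them. They do not bear on T cell identity. Both arms of miR-142a were listed on both arrays, as were 353 of the 739 rows in all. Being listed shows signal for these miRNAs and not what part of either sample was of blood origin. The part of any other cell type in the differences above was not tested.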

How the data were processed

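The deposited intensity values are linear and in arbitrary units, 1 column per array, and rows without a value hold null. The authors extracted RNA with an Ambion kit and labelled it with an Exiqon miRCURY LNA kit, per the labels' protocols. No source used here gives the background subtraction, detection rule or scaling. Members were found by accession, under the names given with them. Lists of T cell, myeloid, epithelial and stromal miRNAs drawn up by name could not be matched to accessions, so they give no values, and neither does the rule that was to name the rows with the closest ratios. Members, lists and groupings were chosen with earlier results of these data known. With 1 array per tissue no test was run. The log2 ratio of lamina propria over spleen was taken for rows listed on both arrays, and a difference was counted from 2-fold. Alternatives were equal medians, equal 75th percentiles, equal totals without the 10 brightest rows, quantile normalization, removal of a lowess trend (fraction 0.5), 1 or 10 added, folds of 1.5 and 4 and, chosen after seeing the data, subtraction of each array's lowest listed value. Counting was tested on simulated data with known changes, small noise, no trend with level and no null rows. It checks the counting step alone and not the counts of these arrays. Sequences and coordinates are RefSeq's (GRCm38.p6). Python 3.11.15, numpy 2.4.6, pandas 2.3.3, statsmodels 0.14.6 and matplotlib 3.10.9 were used.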

Additional observations from a re-analysis of the deposited data

How the results depend on the processing

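No direction of a member at least 2-fold apart was reversed under any setting. A value counts as moved when it shifted by over 1.5-fold, since no replicate spread exists. After quantile normalization the log2 ratios were -1.07 for miR-142a-3p, -0.66 for miR-223-3p and -1.07 for the median of the 5 members, and after trend removal -1.13, -0.85 and -1.13. The ratio of miR-451a was -1.82 with 10 added and -4.18 with the lowest values subtracted. The gap of miR-451a to miR-142a-3p was -1.79 after quantile normalization, 0.10 with 10 added and -1.98 with the lowest values subtracted, and its gap to miR-223-3p was -2.21, -0.17 and -2.25. The gap of miR-486-5p to miR-142a-3p was 1.45 after quantile normalization and 1.51 after trend removal, and that between the miR-142a arms 1.03 and 0.68. The count of lower members was 3 or 4 throughout. Rows at least 2-fold higher made up 24.3% of the upper 50% with medians set equal, 23.2% after quantile normalization and 24.9% after trend removal. Rows at least 2-fold lower made up 24.9% after trend removal and 25.8% over all shared rows. At 1.5-fold 23.2% were higher, and at 4-fold 4.52% were higher and 14.7% lower. Trend removal evens the split by construction. The shares at 1.5-fold and 4-fold differ because the cutoff differs, and the share over all shared rows because the rows differ. Setting medians equal adds a constant to every log2 ratio, which raises the share of higher rows. Adding or subtracting an offset acts most on dim values, such as that of miR-451a in lamina propria. For the remaining changes the cause was not tested. Of 128 values recomputed, 102 did not move, but many of these could not. The settings with equal medians, 75th percentiles or trimmed totals added 0.43, 0.39 and 0.37 to every log2 ratio. Each shift is under 1.5-fold and leaves every gap unchanged. The tally is therefore no measure of stability. No paired analysis was possible because there is 1 array per tissue. Signal over background is unknown, so dim values such as those of miR-486-5p have no stated precision.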
